A study of Mus musculus with 32 samples.

Results

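Tendon assembloids set an intrinsic tissue beside an extrinsic one: a core explant of mouse tail tendon fascicles lies inside a collagen-1 hydrogel that stands for the cell-rich layers around the tendon proper. The data described here are the transcriptomes of the wildtype (WT) cores alone, taken at culture day 7. They comprise 4 libraries of cores whose hydrogel had been seeded with fibroblasts (WT core // fibroblasts) and 4 libraries of cores whose hydrogel held no cells at the start (WT core // cell-free), 8 of the 32 RNA-seq libraries of the series. Members were chosen by their labels, which name the compartment, the core genotype and the hydrogel content, and in which the seeded fibroblasts are called progenitors.

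Both groups came from B6.129S2-Il6tm1Kopf/J mice with the Il-6+/+ genotype, male and female, 12 to 15 weeks old. For each core library, 20 to 24 explants of 2 cm from 1 mouse were pooled. The seeded cells were plastic-adherent cells of the Achilles tendons of 6 mice, pooled and used at passage 2 to 4, so they were a mixed population and not a clone, and the WT genotype of core and hydrogel was the same. Both groups were kept at 20% oxygen in the same medium, which held serum and macrophage colony-stimulating factor at 20 ng/ml. A core library was accepted from an RNA integrity number of 2 upward. The other libraries are cores beside macrophages, cores labelled IL-6 knock-out (KO) with both hydrogel types, and the seeded hydrogels themselves, which served here only for values set beside those of the WT cores.

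Core cells of tendon sit in rows between dense collagen-1 fibres, in a tissue with few vessels, whereas the layers around the fascicles hold fibroblasts, macrophages and vessels that take part in repair. Collagen chains are hydroxylated on proline and lysine in the endoplasmic reticulum by enzymes of the P4ha and Plod families, cross-linked outside the cell by lysyl oxidases, and cut by matrix metalloproteinases (MMPs). Cells sense oxygen through the Egln prolyl hydroxylases, which mark the transcription factor subunit HIF-1alpha for degradation. When oxygen is scarce, HIF-1alpha accumulates and binds DNA at sites with the core letters ACGTG, beside genes of glycolysis, angiogenesis and collagen hydroxylation. The question of the comparison is which transcripts of the core differ when fibroblasts are present in the surrounding hydrogel.

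The total count was between 30121114 and 37594625 per fibroblast core and between 20627049 and 34240500 per cell-free core. The 10 most abundant genes took 10.1 to 13.8% of the counts in the fibroblast cores and 8.0 to 9.70% in the cell-free cores (exact permutation test, two-sided, p = 0.0286, the smallest that 4 against 4 can give). Mitochondrially encoded transcripts took 0.748 to 0.944% and 0.717 to 1.16%. Counts of Y-linked genes placed replicates 1 and 2 of both groups with female mice and replicates 3 and 4 with male mice. In the female fibroblast cores Y-linked genes had 22 and 46 counts (0.585 and 1.47 CPM, where CPM are counts scaled to the library size). The same-numbered cell-free cores had 13 and 2 counts (0.519 and 0.097 CPM), so replicate 1 hardly differed between the groups. The matched hydrogels had 22.5 and 42.4 CPM, so the female fibroblast cores stood at 2.60 and 3.47% of the Y-linked level of their hydrogels. The level of the cell-free cores was not subtracted from these shares. The hydrogels matched to these female cores reached 8.60 and 16.2% of the mean level of the male cores, 261 CPM. The WT hydrogels matched to male cores (hydrogel replicates 4 and 6) reached 56.6 and 55.5%. By the study's methods, hydrogel pools held cells that had migrated from the core beside the seeded fibroblasts. In bulk cores, a change in the number of cells of a type and a change in RNA per cell cannot be told apart.

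Of 16188 transcripts tested, 244 were increased (1.51%) and 179 were decreased (1.11%) in the cores beside fibroblasts, taking an adjusted p under 0.05 together with a log2 difference of more than 0.5 up or down (edgeR's quasi-likelihood test with Benjamini-Hochberg adjustment). The range of the 4 fibroblast cores lay wholly above that of the 4 cell-free cores for 233 of the 244 increased transcripts, against 6.83% of all transcripts tested. It lay wholly below for 177 of the 179 decreased ones, against 6.13%. The median log2 fold change was 0.90 for the increased and -0.67 for the decreased transcripts, and 101 and 36 of them went beyond 1. The transcripts nearest to the fold change threshold were Emp2 at 0.50 and Syne3 at -0.50. Both counts depended on which libraries entered. Without fibroblast replicate 1 they were 41 and 8, without fibroblast replicate 3 they were 47 and 13, and without cell-free replicate 1 they were 94 and 37. Leaving out fibroblast replicate 4 gave 146 and 62, leaving out cell-free replicate 2 gave 161 and 122, and leaving out cell-free replicate 4 gave 380 and 260. In a fit that took its spread from all 5 core groups, 174 were increased and 33 decreased. No named transcript that passed the test changed its sign when a library was left out. The median absolute change of their log2 fold changes was then 0.0465.

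**Figure D1:**
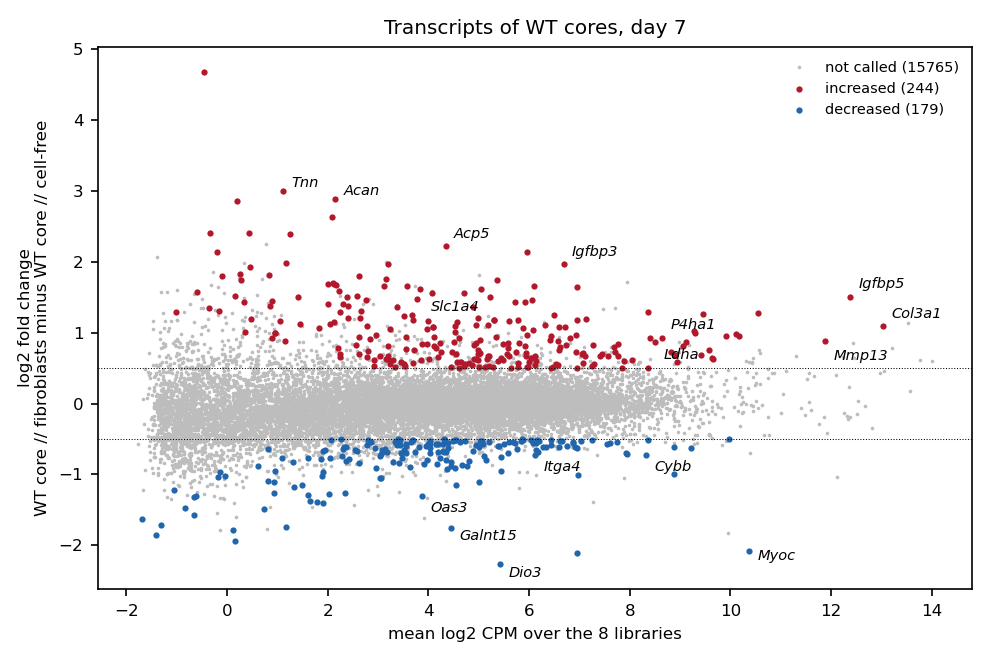
Log2 fold change of each transcript (fibroblast minus cell-free cores, y axis) against its mean log2 CPM over the 8 libraries (x axis), with the 244 increased transcripts in red, the 179 decreased in blue and the 15765 others in grey. Dotted lines mark log2 fold changes of 0.5 and -0.5. The abundant Col3a1, Igfbp5 and Mmp13 lie above the upper line and Myoc below the lower.

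The largest group of increased transcripts by share was that of the hypoxia response. Of 39 members tested, 19 rose (48.7%, against 2.46% of all transcripts at an adjusted p under 0.05), none fell, and the median log2 fold change was 0.72 against -0.02 over all transcripts. Car9, a carbonic anhydrase of the cell surface that exports acid, had 3.08, 4.26, 4.44 and 2.995 CPM in the cell-free cores and 16.9, 20.7, 13.6 and 6.34 CPM in the fibroblast cores. Every fibroblast core lay above every cell-free core, and replicate 4 was the lowest of its group. The log2 fold change was 1.97 with a standard error (SE) of 0.32 and an adjusted p of 0.0169. Vegfa, the main growth factor of blood vessels, stood at 24.4, 46.0, 52.2 and 18.8 CPM without and 98.6, 134, 98.1 and 59.4 CPM with fibroblasts (log2 fold change 1.46 ± 0.34 SE, adjusted p 0.0427). Its groups did not overlap, and replicate 4 of the fibroblast cores came closest to the cell-free cores. Egln3, an oxygen-sensing prolyl hydroxylase that is itself induced by HIF, was low throughout, at 0.385, 1.48, 0.987 and 0.689 CPM and 3.38, 5.97, 3.05 and 1.32 CPM. Replicate 4 of the fibroblast cores lay within the cell-free range, and the log2 fold change was 1.98 ± 0.48 SE (adjusted p 0.0495).

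Further members of the list were the mitophagy receptor Bnip3, the growth inhibitor Ddit4 and the pyruvate dehydrogenase kinase Pdk1, which diverts pyruvate from the mitochondria. Bnip3, named after its values were seen, had 21.1, 25.7, 27.2 and 22.6 CPM in the cell-free cores and 60.4, 75.0, 49.98 and 34.1 CPM in the fibroblast cores (log2 fold change 1.18 ± 0.21 SE, adjusted p 0.02). The log2 fold changes of Ddit4 and Pdk1 were 1.61 ± 0.24 SE and 1.03 ± 0.16 SE. Mif, Ak4, Car12, Ankrd37, Higd1a, Bhlhe40, Hilpda, Egln1 and Angptl4 rose as well, by between 0.62 (Egln1) and 1.47 (Ak4) on the log2 scale. Of the members that did not pass, the glucose transporter Slc2a1 had a log2 fold change of 0.69 (adjusted p 0.0581), Adm of 0.81 (0.0803) and the histone demethylase Kdm3a of 0.14 (0.186). Outside the list, and chosen after their values were seen, the transcript of HIF-1alpha itself and 2 mitochondrial proteins rose. Hif1a had 350.4, 349.6, 449 and 312 CPM and 589.7, 648, 574 and 543 CPM (log2 fold change 0.69 ± 0.12 SE, adjusted p 0.0196). Ndufa4l2, a subunit-like protein that lowers respiration in hypoxia, had 15.3, 22.7, 22.9 and 15.1 CPM and 83.1, 72.7, 62.8 and 35.5 CPM (log2 fold change 1.74 ± 0.25 SE, adjusted p 0.012). Mgarp was near the detection limit in the cell-free cores, at 0.115 to 0.539 CPM, and reached 0.762 to 2.80 CPM in the fibroblast cores (log2 fold change 2.85 ± 0.51 SE).

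The count of 19 depended on which libraries entered. It was 4 without fibroblast replicate 1, 5 without fibroblast replicate 3, 7 without cell-free replicate 1, and 12 without either fibroblast replicate 2 or cell-free replicate 2. The calls of Ndufa4l2, P4ha1, P4ha2, Plod2 and Ldha held without any 1 of the 8 libraries. Car9, Bnip3, Mgarp and Hif1a lost their calls without cell-free replicate 1, fibroblast replicate 1 or fibroblast replicate 3, with adjusted p of up to 0.0751, while the log2 fold change of Car9 stayed between 1.74 and 2.21. Vegfa lost its call without any of 5 libraries (cell-free replicates 1 and 2, fibroblast replicates 1, 2 and 3), at log2 fold changes of 1.27 to 1.72, and Egln3 kept it only without fibroblast replicate 4.

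The promoters of the risen hypoxia genes were searched for the 5 core letters of the hypoxia response element, since Car9, P4ha1, P4ha2, Bnip3 and Egln3 moved together. The search covered the 250 bases before each RefSeq start on GRCm38.p6, on both strands. Of 22 starts of 16 matched genes that rose, 11 held ACGTG or its reverse complement CACGT (50%), and so did 10 of 18 starts of the members that did not pass (55.6%). The share was 26.9% of the starts of all increased transcripts, 9.94% of those of the decreased ones, 20.6% of all transcripts tested and 16.6% of all 32851 starts. The share was therefore as high among the members that did not pass as among those that rose. The following stretches run 5′ to 3′ on the strand of the gene and end at the base before the start, with the core letters in capitals. They lie at chr4:43506966-43507025 (+), chr10:59323236-59323295 (+), chr11:54100804-54100923 (+), chr7:138909507-138909656 (-) and chr12:54203875-54204124 (-), and in Bnip3 both strands match because the 6 letters are a palindrome, which is also an E-box.
Car9: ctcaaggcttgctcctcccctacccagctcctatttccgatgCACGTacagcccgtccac
P4ha1: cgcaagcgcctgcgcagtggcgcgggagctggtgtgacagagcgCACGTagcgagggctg
P4ha2: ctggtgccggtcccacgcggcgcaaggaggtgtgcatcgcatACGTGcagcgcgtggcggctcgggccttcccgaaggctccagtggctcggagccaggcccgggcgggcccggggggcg
Bnip3: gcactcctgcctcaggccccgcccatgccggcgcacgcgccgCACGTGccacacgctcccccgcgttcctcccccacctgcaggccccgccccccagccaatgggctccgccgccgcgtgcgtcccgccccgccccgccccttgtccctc
Egln3: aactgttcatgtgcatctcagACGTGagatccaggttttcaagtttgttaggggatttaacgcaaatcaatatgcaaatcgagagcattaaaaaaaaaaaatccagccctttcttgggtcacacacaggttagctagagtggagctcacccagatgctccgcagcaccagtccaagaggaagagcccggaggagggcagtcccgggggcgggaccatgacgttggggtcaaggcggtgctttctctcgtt

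Enzymes of glycolysis and lactate handling formed the second group. Of 25 members tested, 11 rose (44.0%, against 2.46% of all transcripts) and none fell, with a median log2 fold change of 0.48. Ldha, the lactate dehydrogenase subunit that turns pyruvate into lactate, was nearly constant in the cell-free cores at 248, 257, 258 and 263 CPM. It stood at 511, 529, 476 and 363 CPM in the fibroblast cores, where replicate 4 was again the lowest (log2 fold change 0.87 ± 0.11 SE, adjusted p 0.011). Pfkl, a phosphofructokinase subunit at the committed step of glycolysis, had a log2 fold change of 1.25 ± 0.22 SE. The lactate exporter Slc16a3 had 21.7, 42.3, 26.0 and 25.4 CPM and 91.6, 95.8, 85.0 and 36.5 CPM, so that replicate 4 of the fibroblast cores fell within the range of the cell-free cores (1.43 ± 0.30 SE, adjusted p 0.0355). Pgm1, Eno1, Gys1, Tpi1, Slc16a1, Gapdh and Pfkm rose by 0.90, 0.84, 0.76, 0.73, 0.68, 0.42 and 0.34 on the log2 scale. Pgk1, at 0.68 ± 0.21 SE, did not pass (adjusted p 0.093). The count of 11 was 2 without either fibroblast replicate 1 or fibroblast replicate 3 and 4 without cell-free replicate 1. The nuclear genes of oxidative phosphorylation had a median of 0.10 and 1 risen member (Ndufv3, 0.34). Of the 76, 70 were positive, against 7477 of all 16188 transcripts. Without cell-free replicate 4 the median was 0.22 and 13 rose, and without cell-free replicate 3 the median was 0.06. The 10 mitochondrially encoded genes tested were all negative, with a median of -0.22 that was -0.07 without cell-free replicate 3 and -0.37 without fibroblast replicate 4, and none passed.

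Enzymes that modify, fold and cross-link collagen rose in 10 of 30 members (33.3%, against 2.46% of all transcripts) and none fell. The median log2 fold change was 0.42. P4ha1, a catalytic subunit of prolyl 4-hydroxylase, had 289.6, 296, 258 and 258 CPM in the cell-free and 554, 461, 614 and 470.0 CPM in the fibroblast cores (log2 fold change 0.93 ± 0.11 SE, adjusted p 0.00831). Its lowest fibroblast core lay above its highest cell-free core by a wide margin. The second catalytic subunit, P4ha2, was far less abundant and moved further, from 8.96, 14.99, 16.8 and 11.9 CPM to 37.3, 52.2, 36.5 and 29.3 CPM (1.56 ± 0.21 SE, adjusted p 0.011). Plod2, the lysyl hydroxylase of the collagen ends that form stable cross-links, had 76.6, 57.6, 75.4 and 58.6 CPM and 165, 138, 138 and 126 CPM (1.08 ± 0.12 SE, adjusted p 0.00625). Loxl2, a lysyl oxidase, had 70.2, 99.1, 91.1 and 80.0 CPM and 185, 146, 228 and 217 CPM (1.19 ± 0.15 SE, adjusted p 0.0102). None of these 4 transcripts overlapped between the groups, and each of the 4 calls held without any 1 library. Plod1, Fkbp14, Tgm2, P3h4, Bmp1 and Plod3 rose by 0.70, 0.67, 0.57, 0.54, 0.48 and 0.35. P4ha1, P4ha2 and Plod2 are also members of the hypoxia list. The count of 10 was 5 without cell-free replicate 1, fibroblast replicate 1 or fibroblast replicate 3, and 19 without cell-free replicate 4.

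**Figure D2:**
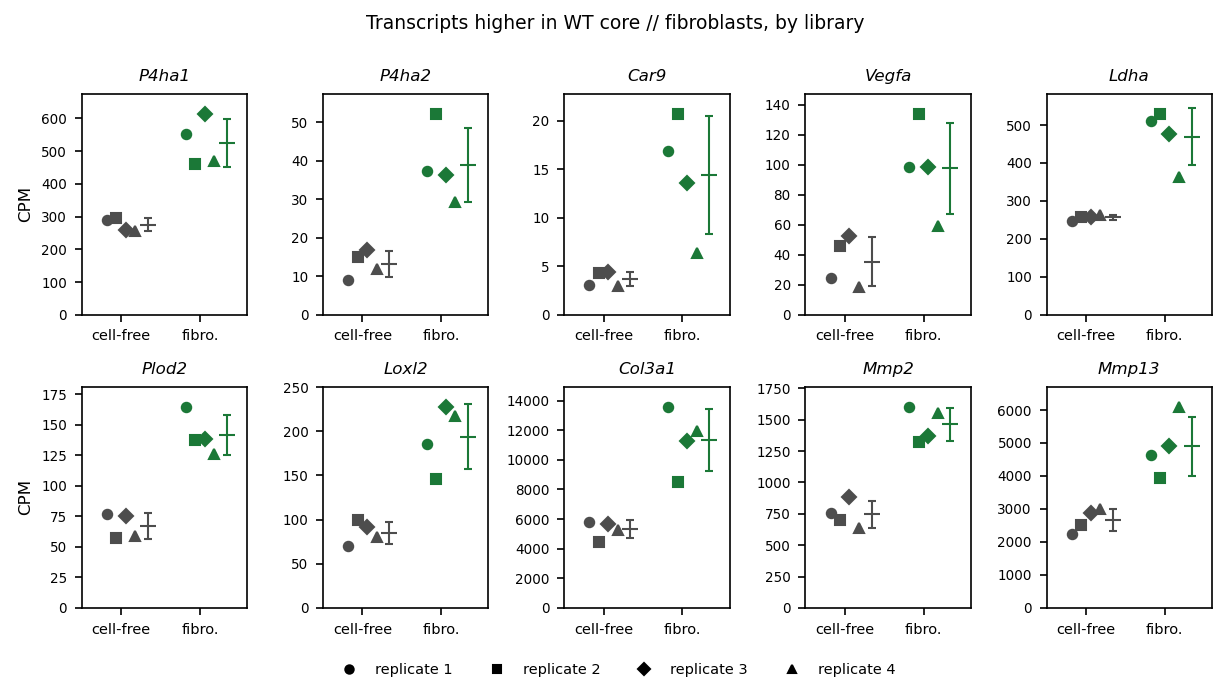
CPM of 10 transcripts in each library (y axes, linear from 0), with cell-free cores in grey and fibroblast cores in green, replicates by marker shape, and the mean ± SD (n = 4) beside them. In each panel the 4 fibroblast cores lie above the 4 cell-free cores. Replicate 4 of the fibroblast cores is the lowest of its group for P4ha2, Car9, Vegfa, Ldha and Plod2.

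The collagens themselves passed the test less widely. Of 11 fibrillar collagen chains tested, Col3a1 and Col5a1 rose (18.2%, against 2.46% of all transcripts) and none fell. Col3a1, the chain of the thinner fibrils of loose and healing connective tissue, had 5814, 4450.2, 5670.4 and 5287 CPM and 13565, 8512, 11251 and 11970.0 CPM (1.09 ± 0.21 SE, adjusted p 0.0281), with no overlap. Col1a1, the main chain of tendon, had 7487, 5881, 4648 and 9899.9 CPM and 15713, 6248, 12925 and 13072 CPM. Replicate 2 of the fibroblast cores lay among the cell-free cores, and the difference did not pass (0.78 ± 0.33 SE, adjusted p 0.213, exact permutation p = 0.0857). Col3a1, Col1a1, Mmp13, Mmp3, Mmp9, Scx and Sox9 are transcripts the study itself chose on these samples, so their direction is not independent evidence. Of 27 other collagen chains, Col23a1, Col16a1 and Col4a2 rose. Col23a1, a membrane-spanning collagen, had 39.4, 33.8, 34.7 and 23.2 CPM and 144, 85.1, 92.4 and 91.8 CPM (1.66 ± 0.20 SE, adjusted p 0.00831), and replicate 1 of the fibroblast cores stood well above the other three. The call of Col23a1 held without any 1 library, whereas that of Col3a1 was lost without cell-free replicate 1 or 2 or fibroblast replicate 1, 3 or 4, at log2 fold changes of 1.00 to 1.21 and adjusted p of up to 0.0934. The count of fibrillar chains that rose was then 0 without cell-free replicate 1 or fibroblast replicate 1, 3 or 4, 1 without cell-free replicate 2 and otherwise 2 or 3.

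Among matrix glycoproteins, 4 of 46 rose (8.70%, against 2.46% of all transcripts) with a median log2 fold change of 0.43. Tnn (tenascin-W), found around bone and in stroma, had 0.462, 0.673, 0.362 and 0.389 CPM and 2.31, 1.95, 1.27 and 9.32 CPM (2.99 ± 0.66 SE, adjusted p 0.0397). Replicate 4 of the fibroblast cores was by far the highest, and without it the log2 fold change was 1.99. Vtn, an adhesion protein of plasma and matrix, was low at 0.150 to 0.362 CPM and reached 0.943 to 1.51 CPM (2.40 ± 0.32 SE), a call that held without any 1 library. Fbn1, the backbone of microfibrils, and Ccn4 rose by 0.63 and 0.65. Fn1 and Tnc, matrix proteins of wound tissue, did not pass at 1.13 ± 0.31 SE (adjusted p 0.0701) and 0.73 ± 0.26 SE (0.147). Spon1, a matrix protein outside the lists, had 16.4, 29.9, 37.2 and 9.23 CPM and 96.0, 78.8, 112 and 120.4 CPM (2.14 ± 0.36 SE, adjusted p 0.0183). Of 40 proteoglycan and hyaluronan genes, Acan, Sdc1 and Gpc1 rose. Sdc1, a cell-surface heparan sulphate carrier, had 69.9, 84.1, 74.0 and 80.4 CPM and 159, 144, 150.1 and 132 CPM (0.92 ± 0.08 SE, adjusted p 0.0026), one of the tightest differences of the data. Acan, the large proteoglycan of cartilage and of compressed tendon, went from 1.81, 1.17, 0.823 and 0.389 CPM to 13.3, 3.02, 5.80 and 8.11 CPM (2.89 ± 0.52 SE, adjusted p 0.0223). The calls of Spon1 and Acan were both lost without fibroblast replicate 1 or 3, that of Spon1 also without cell-free replicate 1 and that of Acan without fibroblast replicate 4, with adjusted p of up to 0.0657. The count of glycoproteins was between 1 (without cell-free replicate 1, fibroblast replicate 1 or fibroblast replicate 3) and 9 (without cell-free replicate 4), and 2 without cell-free replicate 3 or fibroblast replicate 4. That of proteoglycans was 1 without fibroblast replicate 1 or 3 and 9 without cell-free replicate 4.

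Of 18 matrix metalloproteinases, 5 rose (27.8%, against 2.46% of all transcripts) and none fell. Mmp2, a gelatinase of fibroblasts, had 755, 699, 887 and 636 CPM and 1601, 1326, 1369.5 and 1551 CPM (0.97 ± 0.13 SE, adjusted p 0.011), with a call that held without any 1 library. Mmp13, a collagenase that cuts fibrillar collagen, had 2250.1, 2521, 2877 and 2998 CPM and 4642, 3941, 4914 and 6091 CPM (0.88 ± 0.18 SE, adjusted p 0.0326). Mmp9, the gelatinase of leukocytes and osteoclasts, had 13.4, 35.2, 41.8 and 39.3 CPM and 137, 67.7, 82.5 and 63.2 CPM (1.43 ± 0.35 SE, adjusted p 0.0487). The groups were separate for all 3. Mmp16 and Mmp19 rose by 0.71 and 0.38. Mmp3, a stromelysin and the most abundant of the family by CPM, had 11381, 8874, 12103 and 11650.0 CPM and 13805, 16979, 16407 and 19988 CPM. Its groups were also separate, but the log2 fold change of 0.61 ± 0.23 SE did not pass (adjusted p 0.16, exact permutation p = 0.0286). The call of Mmp13 was lost without any of 5 libraries (cell-free replicates 1 and 2, fibroblast replicates 1, 3 and 4), at log2 fold changes of 0.76 to 0.97, and that of Mmp9 stood only without cell-free replicate 4. The count of 5 was 1 without cell-free replicate 1 or 2 or fibroblast replicate 1 or 3, 2 without fibroblast replicate 4 and 3 without fibroblast replicate 2. Beside the proteases, inhibitors moved too: Slpi, an inhibitor of leukocyte elastase, had 348, 346, 496 and 482 CPM and 698, 809.8, 919 and 910.4 CPM (1.00 ± 0.15 SE, adjusted p 0.015). A2m, a broad protease trap of low level, rose by 2.14 on the log2 scale. Timp1, the main inhibitor of MMPs, had 230.4, 156, 205 and 339 CPM and 378, 340.2, 315 and 342 CPM and did not pass (0.56 ± 0.20 SE, adjusted p 0.138). Of 22 ADAM and ADAMTS proteases, Adamts4, an aggrecan-cutting enzyme, and Adam23 rose by 0.67 and 0.80.

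Of 24 markers of tendon lineage, 3 rose (12.5%, against 2.46% of all transcripts), none fell and 21 did not pass. Scx, the transcription factor of tendon progenitors, had 11.8, 12.03, 10.8 and 12.4 CPM and 30.2, 17.3, 27.3 and 15.4 CPM (0.94 ± 0.20 SE, adjusted p 0.0373). Its cell-free values were close together, and replicates 1 and 3 of the fibroblast cores were higher than replicates 2 and 4. The others that rose were Nfatc4 (0.31) and Car9, which stands in this list and in that of hypoxia. Tnmd and Mkx, which mark mature tendon cells, were present in all 8 cores and did not pass, at 0.29 ± 0.46 SE (adjusted p 0.761) and 0.04 ± 0.10 SE (0.849). Of 19 cartilage and bone genes, 4 rose (21.1%). Sox9, the master factor of cartilage, had 4.96, 5.34, 5.40 and 5.39 CPM and 9.76, 7.51, 8.51 and 7.49 CPM (0.66 ± 0.11 SE, adjusted p 0.0206). Ibsp, a bone matrix protein, was almost undetected in the cell-free cores (0.0385, 0.0898, 0 and 0.0599 CPM) and had 0.394, 0.566, 0.446 and 3.67 CPM in the fibroblast cores. Its fitted log2 fold change of 4.68 ± 1.12 SE depends on the prior count, and replicate 4 alone carried most of the signal. The call of Scx was lost without cell-free replicate 1, 2 or 3 or fibroblast replicate 1 or 3, at log2 fold changes of 0.77 to 1.09, and that of Sox9 without cell-free replicate 1 or fibroblast replicate 1 or 3. The tendon count was then 0 without cell-free replicate 1 or fibroblast replicate 1 or 3, and 1 without cell-free replicate 2. The cartilage and bone count was 0 without fibroblast replicate 1 or 3 and 2 without cell-free replicate 1. Of 26 paratenon and adventitial markers, Igfbp5, Ly6a (the stem cell antigen Sca-1) and Sema3c rose and Anxa3 fell.

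Secreted growth factors and their binding proteins included some of the most abundant increased transcripts. In the insulin-like growth factor (IGF) system, 3 of 20 members rose and 1 fell. Igfbp5, an IGF carrier bound to matrix, had 3388, 3383, 2905 and 1393 CPM and 10480.0, 5707, 6612 and 8646 CPM (1.51 ± 0.31 SE, adjusted p 0.0342). Igfbp3, the main IGF carrier of serum, had 24.7, 55.3, 59.9 and 27.9 CPM and 141, 157, 201 and 157 CPM (1.97 ± 0.28 SE, adjusted p 0.011). Both were separate between the groups. Stc1, an inhibitor of IGF-releasing proteases, rose by 1.80, and Pappa2, such a protease, fell by 1.06 on the log2 scale. The call of Igfbp3 held without any 1 library, whereas that of Igfbp5 stood only without fibroblast replicate 2 or cell-free replicate 4. Of 35 angiogenic and growth factor ligands, 6 rose (17.1%, against 2.46% of all transcripts). These were Vegfa, Hbegf, Angptl2, Angptl4, Angpt1 and Pdgfa, by 1.46, 1.17, 0.81, 0.72, 0.52 and 0.48. That count was 1 without fibroblast replicate 1, 2 without fibroblast replicate 3 and 3 without cell-free replicate 1 or 2. In the TGF-beta and BMP system 1 of 47 rose, the secreted glycoprotein Fstl1 (0.95 ± 0.15 SE), and 1 fell, the BMP antagonist Nog (-1.28 ± 0.28 SE), shares close to the 2.46 and 1.83% of all transcripts. Crabp1, a cytoplasmic carrier of retinoic acid, had the joint lowest adjusted p of the data, with 13.8, 14.4, 15.5 and 15.5 CPM and 37.6, 29.0, 32.9 and 31.4 CPM (1.14 ± 0.09 SE, adjusted p 0.00181), and it held without any 1 library. The retinol dehydrogenase Rdh10 and Tgm2 rose with it, 3 of 18 retinoid genes in all (16.7%, against 2.46% of all transcripts).

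Of 39 genes of the IL-6 family, its receptors and STAT3 targets, 4 rose (10.3%) and 1 fell (2.56%), against 2.46 and 1.83% of all transcripts. Il6 itself had 7.31, 1.93, 11.8 and 3.89 CPM and 6.27, 12.1, 5.05 and 9.60 CPM, with overlapping groups (0.39 ± 0.47 SE, adjusted p 0.68). The acute phase proteins Saa1 and Saa2 rose by 1.16 ± 0.15 and 1.18 ± 0.26 SE, and as near-identical copies they share reads that the counting could split between them. Socs3, the feedback inhibitor of IL-6 signalling, had 119, 139, 146 and 104 CPM and 184, 209, 192 and 162 CPM (0.56 ± 0.12 SE, adjusted p 0.0348). The kinase Tyk2 fell by 0.32. The count of 4 was 1 without cell-free replicate 2 or fibroblast replicate 1 or 3, and 2 without cell-free replicate 1 or fibroblast replicate 2. Of the NF-kB and inflammatory genes, none of 32 rose and 1 fell, with 16 positive and 16 negative. The summed level of that list was 17263 to 23475 CPM in cell-free and 25914 to 37516 CPM in fibroblast cores (exact permutation test, two-sided, p = 0.0286). Of the 29 immediate early genes none passed, and of the 23 chemokines none passed.

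Genes that the transcription factor ATF4 drives when amino acids are short or the endoplasmic reticulum is strained rose in 9 of 34 members (26.5%, against 2.46% of all transcripts), with a median log2 fold change of 0.37. Slc1a4, a carrier of serine and alanine, shared the lowest adjusted p of the data. It had 24.97, 23.6, 24.8 and 22.7 CPM in the cell-free and 63.0, 48.2, 57.8 and 49.2 CPM in the fibroblast cores (1.18 ± 0.09 SE, adjusted p 0.00181), and held without any 1 library. Aldh1l2, a mitochondrial enzyme of folate metabolism, had 56.4, 64.4, 59.8 and 68.6 CPM and 120.2, 94.3, 149.6 and 161 CPM (1.07 ± 0.15 SE, adjusted p 0.011). Asns, which makes asparagine, had 18.3, 18.04, 21.5 and 29.5 CPM and 40.2, 30.4, 43.2 and 44.2 CPM (0.85 ± 0.17 SE, adjusted p 0.0311), so the groups were separate although cell-free replicate 4 came close to fibroblast replicate 2. Trib3, Chac1, Vldlr, the amino acid carrier Slc7a5, Ddit4 and Atf5 rose by between 0.41 (Atf5) and 1.61 (Ddit4). Atf4 itself did not pass, at 0.33 ± 0.09 SE (adjusted p 0.0634). The count of 9 was 2 without fibroblast replicate 1, 3 without fibroblast replicate 3, 4 without cell-free replicate 1, 5 without fibroblast replicate 4 and 21 without cell-free replicate 4. The letters TGATGNAA, the composite C/EBP-ATF response element, were present in either orientation in 3 of 9 starts of the risen members, 6 of 23 starts of the others and 3.45% of all starts. The stretch before the start of Asns, at chr6:7693210-7693269 (-), holds 1 match, in capitals.
Asns: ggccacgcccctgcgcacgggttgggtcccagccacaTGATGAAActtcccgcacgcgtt

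**Figure D3:**
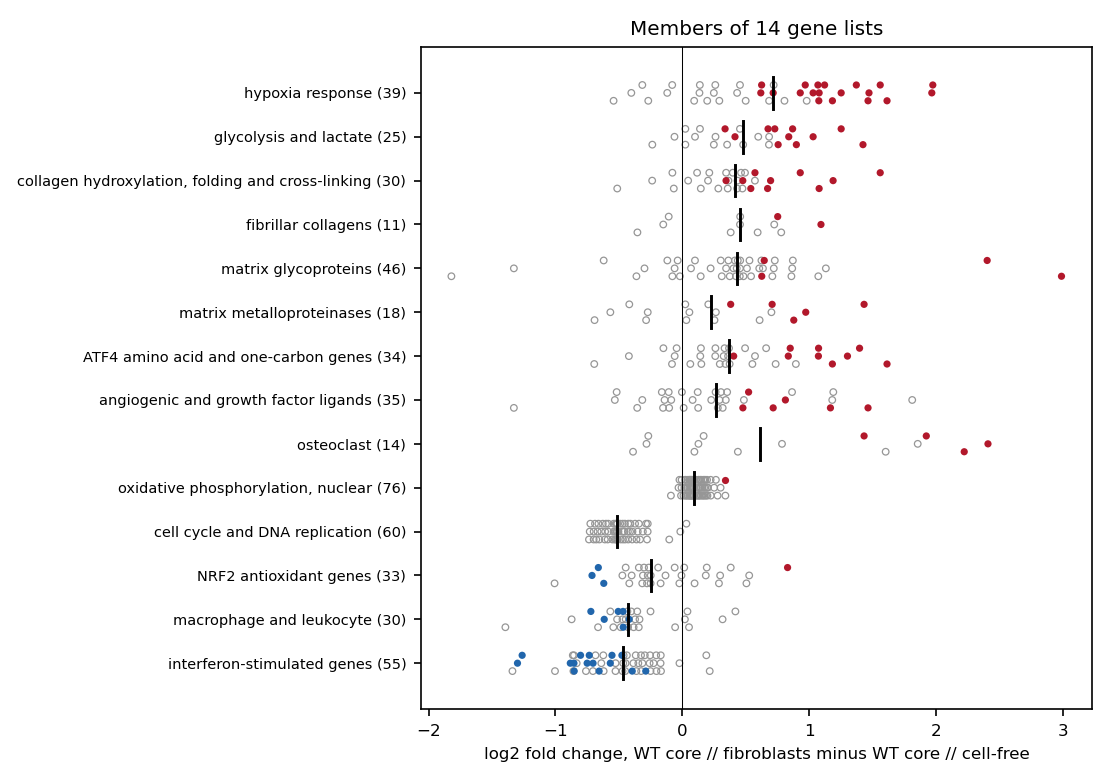
Log2 fold change of each tested member (x axis) in 14 gene lists, with the number tested in brackets. Filled red points rose, filled blue points fell (adjusted p under 0.05), open points did not pass, and the black bar is the median of the list, which runs from 0.72 in the hypoxia list to -0.51 in the cell cycle list, where no point is filled.

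The decreased transcripts held 2 immune groups. Of 55 interferon-stimulated genes, 15 fell and none rose (27.3%, against 1.83% of all transcripts), and 53 of the 55 were negative, with a median log2 fold change of -0.47. Oas3, a sensor of double-stranded RNA, had 18.9, 27.1, 14.2 and 23.7 CPM in the cell-free cores and 7.09, 12.7, 7.04 and 7.14 CPM in the fibroblast cores (-1.30 ± 0.24 SE, adjusted p 0.0252). Replicate 2 was the highest of both groups. Parp14, an ADP-ribosyltransferase, had 148, 139, 129 and 145 CPM and 93.2, 116, 81.5 and 91.3 CPM (-0.55 ± 0.10 SE, adjusted p 0.0246), and the guanylate-binding protein Gbp7 had 38.8, 32.4, 34.2 and 39.7 CPM and 24.2, 27.5, 23.9 and 28.9 CPM (-0.48 ± 0.09 SE, adjusted p 0.0289). Rsad2 (viperin), named after its values were seen, had 20.1, 19.9, 24.9 and 27.4 CPM and 11.3, 16.9, 8.51 and 14.5 CPM (-0.85 ± 0.20 SE, adjusted p 0.0443). The groups of all 4 were separate. Ifi209, Oasl2, Rtp4, Ifi203, Ifit2, Ifi204, Oas1a, Usp18, Dhx58, Ifih1 and Ddx58 fell by between 0.29 (Ddx58) and 1.26 (Ifi209). Members of the Oas and Ifi2 families are close copies in clustered loci, and the counting could split reads between them. Isg15 (-0.68, adjusted p 0.23) and Ifit1 (-0.47, 0.16) did not pass. The count of 15 was 0 without cell-free replicate 1, fibroblast replicate 1 or fibroblast replicate 3, 2 without fibroblast replicate 4 and 3 without cell-free replicate 2.

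The letters GAAA repeated after a gap of 2 bases, the core of the interferon-stimulated response element, were present in either orientation in 5 of 12 starts of the fallen members (41.7%) and in 16 of 33 starts of the members that did not pass (48.5%). They were present in 9.94% of the starts of all decreased transcripts and in 2.98% of all starts. As with the hypoxia element, the share was no lower among the members that did not pass. The stretches before the starts of Gbp7 (chr3:142530246-142530335, +), Oas3 (chr5:120777660-120777779, -) and Rsad2 (chr12:26456453-26456602, -) are shown with the match in capitals, which in Gbp7 and Rsad2 is the reverse complement.
Gbp7: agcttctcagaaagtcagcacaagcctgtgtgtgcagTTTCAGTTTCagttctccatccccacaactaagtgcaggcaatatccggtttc
Oas3: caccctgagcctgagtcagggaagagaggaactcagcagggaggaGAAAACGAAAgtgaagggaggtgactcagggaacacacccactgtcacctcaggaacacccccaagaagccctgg
Rsad2: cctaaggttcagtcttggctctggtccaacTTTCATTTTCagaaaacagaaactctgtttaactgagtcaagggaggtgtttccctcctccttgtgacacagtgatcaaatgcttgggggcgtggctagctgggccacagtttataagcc

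Markers of macrophages and other leukocytes formed the other immune group. Of 30 tested, 6 fell (20%, against 1.83% of all transcripts), none rose and 25 were negative, with a median log2 fold change of -0.43. Their summed level was 12971 to 18091 CPM in the cell-free cores and 11868 to 12597 CPM in the fibroblast cores (exact permutation test, two-sided, p = 0.0286, the smallest that 4 against 4 can give). It was 13138 to 24286 CPM in the fibroblast-seeded WT hydrogels, and no marker was at 0 in all 8 cores. Cybb, the catalytic subunit of the phagocyte oxidase, had 433, 351, 315 and 506 CPM and 252, 249, 229.6 and 244 CPM (-0.72 ± 0.14 SE, adjusted p 0.0271). Csf1r, the receptor of macrophage colony-stimulating factor, had 612, 529, 438 and 703 CPM and 410.3, 378, 353 and 348 CPM (-0.61 ± 0.14 SE, adjusted p 0.0415). The fibroblast cores were close together for both, and the cell-free cores spread more widely, with replicate 4 the highest. The pore-forming Mpeg1 had 1355, 1064, 1081 and 1190.1 CPM and 829.3, 918, 756 and 804 CPM (-0.50 ± 0.11 SE, adjusted p 0.0418). The pan-leukocyte Ptprc, the Fc receptor chain Fcer1g and the lysosomal Cd68 fell by 0.47, 0.46 and 0.42. The complement chains C1qa and C1qb, which resident macrophages make, had log2 fold changes of 0.02 and -0.06. The count of 6 was 0 without cell-free replicate 1 or fibroblast replicate 1 or 4, 1 without fibroblast replicate 3 and 3 without fibroblast replicate 2. Whether the lower level of these markers bears on that of the interferon-stimulated genes was not tested.

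In the migration list, 3 of 52 members rose (5.77%, against 2.46% of all transcripts) and 1 fell (1.92%, against 1.83%). The fallen member, Itga4, an integrin subunit of leukocytes and other migrating cells, had the lowest p of the decreased transcripts. It had 101, 76.3, 83.5 and 86.3 CPM and 52.2, 53.8, 49.8 and 55.0 CPM (-0.72 ± 0.09 SE, adjusted p 0.00831), and held without any 1 library. Further decreased transcripts of low p were the interferon-inducible Mndal (-0.92) and Ifi207 (-0.79), which are close copies of each other, Dock10 (-0.54), the transcription factor Mitf (-0.61), the macrophage enzyme Lacc1 (-0.53), Arhgap25 (-0.52) and the B cell and macrophage adaptor Pik3ap1 (-0.52). Of 14 osteoclast genes, 4 rose (28.6%, against 2.46% of all transcripts): Acp5, Dcstamp, Ocstamp and Mmp9. Acp5, tartrate-resistant acid phosphatase, had 4.81, 7.00, 9.84 and 6.86 CPM and 67.8, 14.9, 30.9 and 19.7 CPM (2.22 ± 0.45 SE, adjusted p 0.0311), with replicate 1 by far the highest. Dcstamp and Ocstamp, which osteoclasts and giant cells need for fusion, were under 1 CPM in every cell-free core and between 1.1 and 4.05 and between 0.974 and 3.49 CPM in the fibroblast cores (2.41 ± 0.47 and 1.92 ± 0.40 SE). The osteoclast protease Ctsk (0.44), Calcr (0.79) and the transcription factor Nfatc1 (0.10) did not pass. The summed level of the 14 genes was 693 to 909 CPM and 717 to 1060.4 CPM (exact permutation p = 0.314). The 4 calls were all lost without cell-free replicate 1 or 2 or fibroblast replicate 1 or 3, and 2 stood without fibroblast replicate 4. Acp5 then had log2 fold changes of 1.61 to 2.47.

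Of 33 antioxidant genes regulated by NRF2, 23 were negative, against 8711 of all 16188 transcripts. Of the 33, 3 fell (9.09%, against 1.83% of all transcripts) and 1 rose (3.03%, against 2.46%). Cat, the peroxisomal catalase, had 323, 255, 314 and 333 CPM and 167, 202, 212 and 168 CPM (-0.71 ± 0.11 SE, adjusted p 0.0159), with separate groups. It lost its call only without fibroblast replicate 1 (adjusted p 0.0644). Gstm1, a glutathione transferase, and Gclm, a subunit of the enzyme that makes glutathione, fell by 0.66 and 0.62, while the extracellular superoxide dismutase Sod3 rose by 0.83. The count of 3 was 0 without fibroblast replicate 1, 1 without fibroblast replicate 3 and 6 without cell-free replicate 4.

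The largest decreases were in transcripts of other kinds. Galnt15, an enzyme that starts O-linked glycans, had 34.8, 29.4, 26.8 and 43.9 CPM and 6.92, 8.45, 10.7 and 14.1 CPM (-1.75 ± 0.22 SE, adjusted p 0.0106), and held without any 1 library. Myoc (myocilin), a secreted glycoprotein, had 2244, 1143, 943 and 4223 CPM and 661, 379.6, 509 and 471 CPM (-2.08 ± 0.44 SE, adjusted p 0.0354). Its antisense neighbour Myocos moved with it (-2.10 ± 0.44 SE), and reads of this overlapping pair may be shared. Dio3, which inactivates thyroid hormone, had 41.1, 51.1, 43.0 and 149 CPM and 7.17, 12.6, 17.8 and 21.7 CPM (-2.27 ± 0.47 SE, adjusted p 0.0351). Cell-free replicate 4 was by far the highest for both Myoc and Dio3, and without it their log2 fold changes were -1.50 and -1.59. The call of Myoc was lost without cell-free replicate 1 or any 1 fibroblast library, and that of Dio3 also without cell-free replicate 2. Cd207 (langerin) and the oxytocin receptor Oxtr, both under 10 CPM, fell by 1.395 and 1.38.

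**Figure D4:**
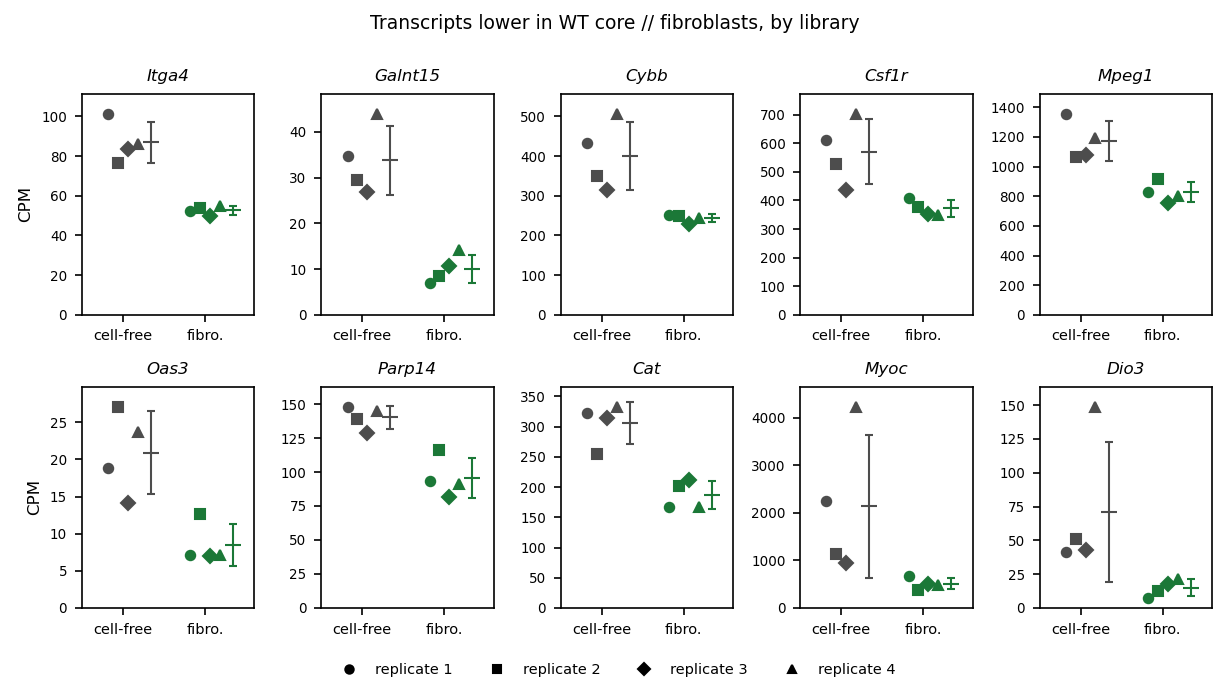
CPM of 10 transcripts in each library (y axes, linear from 0), drawn as for the increased transcripts, with the mean ± SD (n = 4). In each panel the 4 fibroblast cores lie below the 4 cell-free cores. Cell-free replicate 4 stands apart for Myoc and Dio3.

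Proliferation genes did not pass. Of 60 cell cycle and DNA replication genes, 59 were negative, against 8711 of all 16188 transcripts. The median log2 fold change of the 60 was -0.51, and none fell or rose. The median was -0.20 without cell-free replicate 4. Mki67, a marker of dividing cells, had 167, 176, 115 and 234 CPM and 115, 127, 74.5 and 128 CPM (-0.64 ± 0.22 SE, adjusted p 0.132), and Top2a had 66.0, 74.2, 42.5 and 115 CPM and 54.7, 62.8, 38.8 and 52.1 CPM (-0.51 ± 0.26 SE, 0.289). Cell-free replicate 4 was the highest and cell-free replicate 3 the lowest of its group for both. Without cell-free replicate 3, 6 of the 60 fell, and without fibroblast replicate 2, 1 fell. Of the cholesterol and fatty acid synthesis genes, 1 of 33 rose (3.03%, against 2.46% of all transcripts). Of the 33, 32 were positive, against 7477 of all 16188 transcripts. Their summed level was 3514 to 4195 CPM in cell-free and 4356 to 4795 CPM in fibroblast cores (exact permutation test, two-sided, p = 0.0286). Of the secretory pathway genes of the endoplasmic reticulum, 3 of 30 rose (10.0%: Kdelr3 0.73, Sec23a 0.49, Sec24d 0.35) and 28 were positive. Their sums were 6311 to 7551 CPM and 7661 to 8769 CPM (exact permutation test, two-sided, p = 0.0286). In cores labelled KO, 31 of 33 and 19 of 30 were positive, against 7449 of all 15965. The secretory count was 9 without cell-free replicate 4, 5 without fibroblast replicate 2, 1 without cell-free replicate 2 or fibroblast replicate 4 and 0 without cell-free replicate 1 or fibroblast replicate 1 or 3. Of other cell types, the endothelial list held 1 fallen member, the VEGF receptor Kdr (-0.90 ± 0.20 SE), and 1 risen, Plvap (1.12 ± 0.21 SE). Each was 6.67% of the 15 tested, against 1.83% fallen and 2.46% risen of all transcripts. The summed levels were 57.6 to 72.5 CPM in cell-free and 51.1 to 60.9 CPM in fibroblast cores. The Schwann cell list held 1 risen member of 13 (7.69%), Ngfr (1.69 ± 0.35 SE). None of the tested members of the smooth muscle and pericyte (11), skeletal muscle (10), adipocyte (4), lymphocyte, mast cell and granulocyte (4), keratinocyte (3) and erythroid (2) lists passed.

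Counts in the smaller lists moved with single libraries in the same way. Without fibroblast replicate 1 or 3, no member rose in the ADAM and ADAMTS, paratenon, TGF-beta and BMP, migration, cholesterol and endothelial lists, and 1 rose among the other collagens and the retinoid genes. Without cell-free replicate 4, 6 rose among the other collagens, 6 in the IGF system, 5 in the TGF-beta and BMP system, 4 among the cholesterol genes and 8 in the migration list, where 3 fell. Without fibroblast replicate 2, 7 of the migration list rose and 2 fell, and without cell-free replicate 3, 5 rose. Without cell-free replicate 1, 1 member rose in each of the other collagen, ADAM and ADAMTS, paratenon, migration and retinoid lists.

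The seeded hydrogels were set beside the called transcripts. By the study's methods, a hydrogel pool also held cells that had migrated out of the embedded core. The hydrogel level is therefore not that of the seeded fibroblasts alone. To set the compartments side by side, the following values are CPM scaled over all 32 libraries. Of 243 increased transcripts tested there, 187 (77.0%) were higher in the hydrogels around cores labelled KO than in cell-free cores labelled KO, against 52.1% of all transcripts. Those hydrogels had been seeded with WT fibroblasts. Of 176 decreased ones, 43 (24.4%) were higher there, against 52.1%. These libraries share none with the WT comparison. In the WT assembloids, the rise of an increased transcript in the core amounted to a median of 41.9% of its level in the WT hydrogels. That share was 2.05% for Ibsp and 2.21% for Tnn, 9.12% for Sox9 and 9.59% for Acan, 25.6% for Mmp13 and 44.3% for Col3a1, and above 100% for 40 transcripts. Among the latter, Col23a1 averaged 31.3 CPM in cell-free cores, 101 CPM in fibroblast cores and 22.4 CPM in WT hydrogels, and Scx 11.3, 22.0 and 10.5 CPM. Tdh, a threonine dehydrogenase, averaged 1.14, 6.86 and 0.278 CPM, so that its core level exceeded that of the hydrogel. Its call was lost without cell-free replicate 1 or 3 or fibroblast replicate 1, 3 or 4, at log2 fold changes of 2.20 to 3.44.

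The same contrast was measured in cores labelled KO, with no library in common. The label could not be checked by Il6 counts, because Il6 averaged 10.5 CPM in cell-free and 19.7 CPM in fibroblast cores labelled KO against 5.95 and 8.04 CPM in WT cores, and gene-level counts do not separate a transcript from an interrupted allele. In cores labelled KO, 48 of 15965 transcripts were increased (0.301%) and 21 decreased (0.132%). Those counts were 3 and 1 without cell-free KO replicate 3, 6 and 1 without cell-free KO replicate 4, 7 and 1 without fibroblast KO replicate 4, and 219 and 278 without cell-free KO replicate 2. They were 11 and 2 without fibroblast KO replicate 2, 14 and 2 without fibroblast KO replicate 1, 79 and 36 without fibroblast KO replicate 3, and 32 and 13 without cell-free KO replicate 1.  Of 242 transcripts increased in WT cores and tested in those labelled KO, 237 (97.9%) had a positive log2 fold change there, against 46.7% of all transcripts, and 25 were called. Of 177 decreased ones, 174 (98.3%) were negative, against 53.3%, and 5 were called. The median was 0.67 and -0.59.

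Among the named transcripts that passed in both were Car9, Egln3, P4ha2, Bnip3, Ndufa4l2, Igfbp3, Sdc1, Slc1a4, Ddit4, Pdk1, Pfkl, Slc16a3, Mgarp, Sod3, Gbp7, Myoc and Myocos. Car9 had a log2 fold change of 3.91 ± 0.48 SE (adjusted p 0.0146) in cores labelled KO against 1.97 ± 0.32 in WT cores, and its mean rose there from 3.41 to 51.8 CPM. Egln3 had 3.18 ± 0.51 SE against 1.98 ± 0.48, and Myoc -2.997 ± 0.50 SE against -2.08 ± 0.44. In cores labelled KO, the hypoxia list had 12 risen members of 39 and a median of 1.00, where 0.301% of all transcripts rose. The interferon-stimulated list had 3 fallen members of 55 and a median of -0.89, where 0.132% of all transcripts fell. The macrophage list had none and a median of -0.39. Of the nuclear oxidative phosphorylation genes, 11 of 76 were positive there, with a median of -0.12, against 70 of 76 in WT cores. Of the cell cycle genes, 59 of 60 were negative there, with a median of -0.52, and none passed. Mmp13 had 0.08 ± 0.19 SE (adjusted p 0.911), Scx 0.29 ± 0.21 SE (0.663) and Col3a1 0.70 ± 0.30 SE (0.395). The difference of the effect between WT cores and those labelled KO passed for 0 of 16772 transcripts by edgeR's quasi-likelihood test, with 504 at an unadjusted p under 0.05 and a lowest adjusted p of 0.985, and for 1 by DESeq2. Mmp13 and Car9 had unadjusted interaction p of 0.00457 and 0.00607, which did not survive the adjustment. In WT cores beside macrophages, which share the cell-free libraries with the main comparison, 124 of 16441 transcripts were increased (0.754%) and 633 decreased (3.85%). There, Car9 had a log2 fold change of -0.15 (adjusted p 0.696), P4ha1 of -0.14 (0.582), Mmp13 of 0.57 (0.125), Vegfa of 0.88 (0.16) and Cybb of -1.16 (0.0295).

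**Figure D5:**
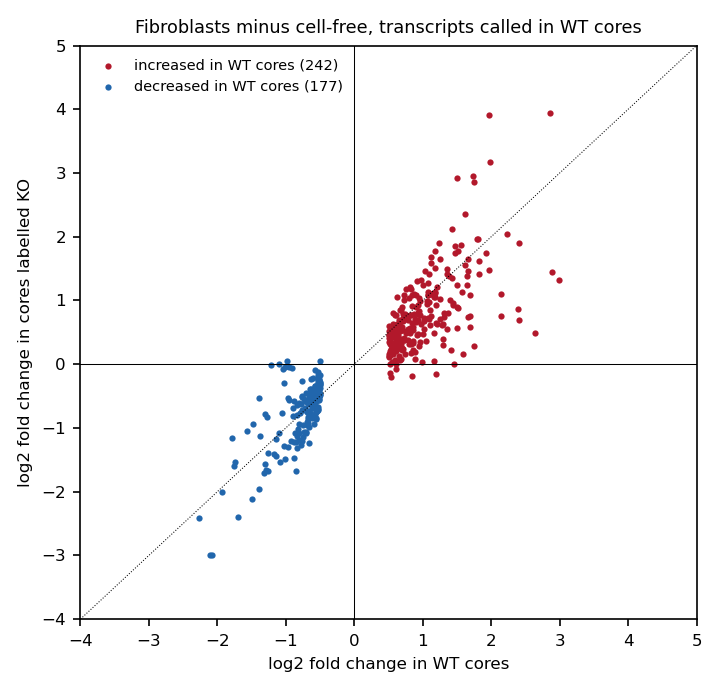
Log2 fold change (fibroblast minus cell-free cores) in cores labelled KO (y axis) against that in WT cores (x axis) for transcripts called in WT cores, 242 increased in red and 177 decreased in blue, with a dotted line of equality. The selection used the x axis, so only the position on the y axis is informative: 237 red points lie above 0 and 174 blue points below 0.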

How the data were processed

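RNA of the cores and hydrogels was sequenced by the study after ribosomal depletion as stranded total RNA, and the authors deposited estimated counts per gene, made with kallisto 0.46.1 and given as whole numbers. The submitters' processing notes also name GRCm39 and DESeq2, while no source used here gives the release of the annotation. Symbols were taken from a gene table for 25587 of 25700 gene identifiers.

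Groups came from the labels, which do not say whether same-numbered core pools shared a mouse, so p-values measure the spread between these pools. The 8 WT core libraries were fitted alone, by group, with edgeR 4.0.16 (quasi-likelihood test, TMM scaling, filterByExpr) in R 4.3.3 with limma 3.58.1, and p-values were adjusted by Benjamini-Hochberg over all 16188 transcripts. A transcript was called increased or decreased at an adjusted p under 0.05 and a log2 fold change beyond 0.5. A list member was said to rise or fall at an adjusted p under 0.05 alone. At that threshold 2.46% of all transcripts rose and 1.83% fell in WT cores. CPM are TMM-scaled. Exact permutation tests ran over all 70 splits of 4 against 4. On simulated counts the fit recovered 28, 94 and 100% of transcripts raised by 0.5, 1 and 2 on the log2 scale and 72% of those lowered by 1, with 11 false calls of 16036. These counts were drawn independently from the fitted dispersions and scored by adjusted p alone. Variation shared between real libraries was left out, so the figures do not give the error rate of the calls reported here.

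Named transcripts were the 15 of lowest p in each direction and the 8 of largest fold change in each direction (mean log2 CPM of at least 1, gene models without a proper name left out), Il6 and the study's own transcripts, and up to 6 of lowest p from each list. Others were chosen after their values were seen, among them the remaining list members given by value, Spon1, Tdh, Hif1a, Bnip3, Ndufa4l2, Mgarp and Rsad2 where these did not meet that rule. The members and lists were chosen with earlier results of these data known. Alternatives were DESeq2 1.42.0, RLE scaling, other filters, other thresholds, blocks, a fit over all 5 core groups, and leaving out each library in turn. Promoter windows are RefSeq, GRCm38.p6. Some transcripts are not reported here.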

Additional observations from a re-analysis of the deposited data

Results flagged for a closer look

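In 6 of 92 groups of 4 libraries checked (6.52%), 1 library stood apart from the other three by more than Dixon's critical value of 0.829 of the range. Chance gives about 1 in 20 such groups. Col23a1 was highest in replicate 1 of the fibroblast cores, at 143.6 CPM. Tnn was highest in replicate 4 of the fibroblast cores, at 9.323 CPM, and so was Ibsp, at 3.674 CPM. Oas3 was highest in replicate 2 of the fibroblast cores, at 12.7 CPM. Dio3 was highest in replicate 4 of the cell-free cores, at 148.7 CPM. Sox9 was lowest in replicate 1 of the cell-free cores, at 4.963 CPM.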

How the results depend on the processing

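When single libraries were left out, increased transcripts in WT cores ranged from 41 to 380 and decreased ones from 8 to 260, and in cores labelled KO from 3 to 219 and from 1 to 278. DESeq2 gave 428 and 346 in WT cores, 272 and 230 in cores labelled KO, and 1 transcript for the difference between the genotypes. By edgeR that difference passed for 0 transcripts with all libraries and with any 1 left out. Without the fold change threshold 398 and 297 passed, and at an unadjusted p under 0.05, 580 and 641. A fit over all 5 core groups gave 174 increased and 33 decreased, and 80 of the 165 named transcripts that passed were lost in it. The cause was not tested. Deviations of same-numbered WT libraries correlated at 0.0668 to 0.424, and 2 of 4 fibroblast libraries correlated best with their own number. Same-numbered fibroblast and cell-free cores also had the same sex from counts and the same run code, in WT cores and in those labelled KO. The labels do not say whether they shared a mouse, and the number was not taken as a pairing in the main fit. Adding a replicate block to the fit, the WT counts were 296 and 215 and those of cores labelled KO 223 and 185, and in WT cores 6 of the 60 cell cycle genes and 23 of the 55 interferon-stimulated genes fell. Using the run code of the labels as the block gave 330 and 229 in WT cores, and sex gave 230 and 153. Of the 165 named transcripts, 33 passed in every alternative run, and none turned its sign. Low transcripts such as Ibsp, Vtn and Mgarp rest on few counts.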
